A study of Mus musculus with 13 samples.

Results

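Signalling by platelet-derived growth factor (PDGF) and fibroblast growth factor (FGF) was followed through 10 genes of ligands and receptors, taken by symbol out of the 55487 genes counted. These were the PDGF receptor genes Pdgfra and Pdgfrb, the PDGF ligand genes Pdgfa and Pdgfc, the FGF ligand genes Fgf2, Fgf7 and Fgf10, and the FGF receptor genes Fgfr1, Fgfr2 and Fgfr3. The 13 poly-A RNA libraries came from mouse embryonic fibroblasts (MEFs), either as primary cultures or as lines that had immortalized spontaneously. Cultures were passaged until senescence in medium with 10% fetal calf serum (FCS), then given 20% FCS until colonies grew out into lines. The WT groups held 3 primary cultures (clones 3, 4 and 5, each of its own embryo) and the 3 lines that arose from them. The Prkd3-/- groups held 3 primary cultures (clones 13, 14 and 15) and 4 lines, of which lines 13 and 13a share a clone number, taken here to mark the same embryo. The growth medium was the same for every group, the sources used here name no added PDGF or FGF, and each line is the product of its own colony outgrowth. How Prkd3, which encodes a protein kinase D, was disrupted is not given in the sources used here, and the gene was still counted at 33.6 to 43.2 CPM (the count of a gene scaled to the size of its library) in the Prkd3-/- primary libraries and 43.8 to 61.0 in their lines, against 69.2 to 73.7 and 73.6 to 93.8 in WT. Prkd3-/- is therefore used below as the name of the label.

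PDGFs and most FGFs are secreted proteins that bind receptor tyrosine kinases on the cell surface, pair the receptors and switch on the RAS-ERK, PI3K and phospholipase C gamma pathways. PDGF receptors mark mesenchymal cells and drive their division and migration, and PDGF is a main mitogen of serum for cultured fibroblasts. FGFs act together with heparan sulfate chains, and fibroblasts secrete Fgf7 and Fgf10 as signals to neighbouring epithelium.

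Libraries held 35273408 to 100441756 counts, so counting error was small for every member except Fgfr3. The WT primary libraries differed little from each other, with an excess variation of 4.03% to 6.51% per gene beyond counting, against 42.2% to 50.6% among WT lines, 14.7% to 40.0% among Prkd3-/- primary libraries and 44.3% to 72.8% among Prkd3-/- lines. Prkd3-/- primary 14 stood apart from the other Prkd3-/- primary libraries. Of the fibroblast markers, Col1a1 and Fn1 were abundant in every group, while Dcn, a matrix proteoglycan, was near 0 in WT line 3 (0.661 CPM) and in Prkd3-/- lines 13 and 15 (0.382 and 0.702 CPM). Summed CPM of 11 macrophage markers lay at 721 to 749 in WT primary libraries and 34.7 to 104 in WT lines. In Prkd3-/- it lay at 97.5 to 1117 in primary libraries, highest in primary 14, and at 10.6 to 190 in lines, highest in line 13a. None of these markers was at 0 in every library, and their part in the results below was not tested.

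RefSeq promoters of assembly GRCm38.p6, running from 250 bases before to 50 after a transcription start, were found for 8 of the 10 members, and not for Fgfr1 and Pdgfrb. Pdgfra, Fgf7 and Fgf10 are shown. They were among the 5 members whose highest level among the lines was in WT line 5. Pdgfa and Fgfr1 had this trait too, but the Pdgfa windows are not shown and Fgfr1 had none. The genes shown were chosen after their values were seen. Capitals mark matches, on either strand and without overlap, to the CCAAT box (CCAAT) and the GC box (GGGCGG). The TATA box (TATAAA) was searched as well.
Pdgfra, chr5:75152001-75152300, + strand: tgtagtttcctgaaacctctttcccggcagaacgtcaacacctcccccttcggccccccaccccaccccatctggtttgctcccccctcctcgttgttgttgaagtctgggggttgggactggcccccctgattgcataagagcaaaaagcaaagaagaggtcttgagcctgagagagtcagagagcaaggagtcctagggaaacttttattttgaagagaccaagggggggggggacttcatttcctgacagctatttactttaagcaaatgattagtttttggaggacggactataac
Fgf7, chr2:126034408-126034707, + strand: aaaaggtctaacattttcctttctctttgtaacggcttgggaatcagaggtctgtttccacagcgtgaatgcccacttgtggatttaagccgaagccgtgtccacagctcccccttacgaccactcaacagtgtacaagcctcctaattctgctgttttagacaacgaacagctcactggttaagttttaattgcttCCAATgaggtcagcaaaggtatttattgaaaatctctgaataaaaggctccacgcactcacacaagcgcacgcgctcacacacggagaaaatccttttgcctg
Fgf10, chr13:118714449-118714748, + strand: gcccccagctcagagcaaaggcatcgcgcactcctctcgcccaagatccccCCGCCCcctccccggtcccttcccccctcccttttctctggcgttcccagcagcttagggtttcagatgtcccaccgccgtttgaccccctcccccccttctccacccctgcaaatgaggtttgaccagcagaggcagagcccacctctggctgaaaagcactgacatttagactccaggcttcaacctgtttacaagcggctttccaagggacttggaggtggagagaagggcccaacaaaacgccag
The Fgf7 window held 1 CCAAT box, found in 37.4% of 32851 RefSeq promoters of the same length. The Fgf10 window held 1 GC box, on the reverse strand, found in 35.7% of them, and the Pdgfra window held neither. TATAAA, found in 13.6% of all promoters, was in no window of the 8 members. CG dinucleotides numbered 5 for Pdgfra, 11 for Fgf7 and 10 for Fgf10, against a median of 7 over all promoters. The Pdgfa windows, not shown, held 24 and 37, with 1 and 2 GC boxes.

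Per length, as CPM per kilobase of exon (RPKM), Pdgfrb was the most abundant member in each group, with a mean level of 83.6 RPKM in WT primary MEFs. Fgfr1 followed at 27.5 RPKM, then Fgf7 at 21.7, Pdgfc at 16.1, Pdgfra at 15.2, Pdgfa at 13.6, Fgf10 at 13.2, Fgfr2 at 8.02, Fgf2 at 6.54 and Fgfr3 at 0.450. In this order Pdgfc and Pdgfra overlapped in range, as did Pdgfa and Fgf10, and the other neighbours did not. In Prkd3-/- primary MEFs Pdgfrb also led, at 37.0 RPKM and clear of Fgfr1 at 24.4, but Fgfr1 overlapped with Fgf7 at 22.7 and Fgf7 with Pdgfc at 19.4. Among lines the order was loose. Pdgfrb averaged 121 RPKM in WT lines and 72.8 in Prkd3-/- lines, its range overlapped that of Fgf7 (means of 49.1 and 37.0 RPKM), and Fgfr3 was the lowest in both genotypes (0.323 and 0.297 RPKM), below the range of its neighbour Fgfr2.

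Pdgfra (chr5:75152292-75198215, + strand, build GRCm38 as for every gene position below) encodes the receptor that binds PDGF-A and PDGF-C. It was at 148, 151 and 157 CPM in WT primary 3, 4 and 5, and at 27.5, 44.1 and 484 CPM in the WT lines 3, 4 and 5. Lines 3 and 4 were thus below every WT primary library and line 5 above them. Prkd3-/- primary 13, 14 and 15 had 102, 48.8 and 50.5 CPM, and lines 13, 13a, 14 and 15 had 10.2, 97.3, 91.1 and 125 CPM. Line 13 was the lowest of the 13 libraries, whereas line 13a, of the same embryo number, stood beside primary 13. By edgeR's quasi-likelihood test the difference of lines from primary MEFs was a Log2FC of 0.29 ± 1.07 (SE) in WT (adjusted p = 0.912) and 0.27 ± 0.72 in Prkd3-/- (adjusted p = 0.958). WT line 5 set the sign. Without it the WT Log2FC was -2.08 with an adjusted p of 0.00903 (edgeR), past the thresholds used. Of the counted exon bases of Pdgfra, 6.504% are shared with the small genes Gm42802, Gm42803 and Mir7025, and counting took no account of strand.

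Pdgfrb (chr18:61045150-61085061, + strand), the receptor for PDGF-B and a gene of pericytes and fibroblasts, was at 465, 464 and 445 CPM in WT primary MEFs. The WT lines 3, 4 and 5 had 359, 1042 and 586 CPM, on both sides of the primary range. In Prkd3-/- the primary libraries had 214, 217 and 176 CPM and lines 13, 13a, 14 and 15 had 221, 401, 575 and 399 CPM. All 4 lines were above the 3 primary libraries, although line 13 by a narrow margin. The fitted Log2FC was 0.53 ± 0.38 in WT (adjusted p = 0.504, edgeR) and 0.97 ± 0.32 in Prkd3-/- (adjusted p = 0.669, edgeR). Summed mural and smooth muscle markers, of which Acta2 and Tagln made up most, were at 4520 to 4633 CPM in WT primary libraries and at 10944, 4143 and 2889 CPM in WT lines 3, 4 and 5, and their part in the Pdgfrb levels was not tested. Within a library, the per-length level of Pdgfrb was 5.19 to 5.75 times that of Pdgfra in WT primary MEFs. In WT lines 3, 4 and 5 this ratio was 23.9, 43.3 and 2.22. In Prkd3-/- it was 3.85 to 8.13 in primary libraries, 39.6 in line 13 and 5.83 to 11.5 in the other lines.

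**Figure D1:**
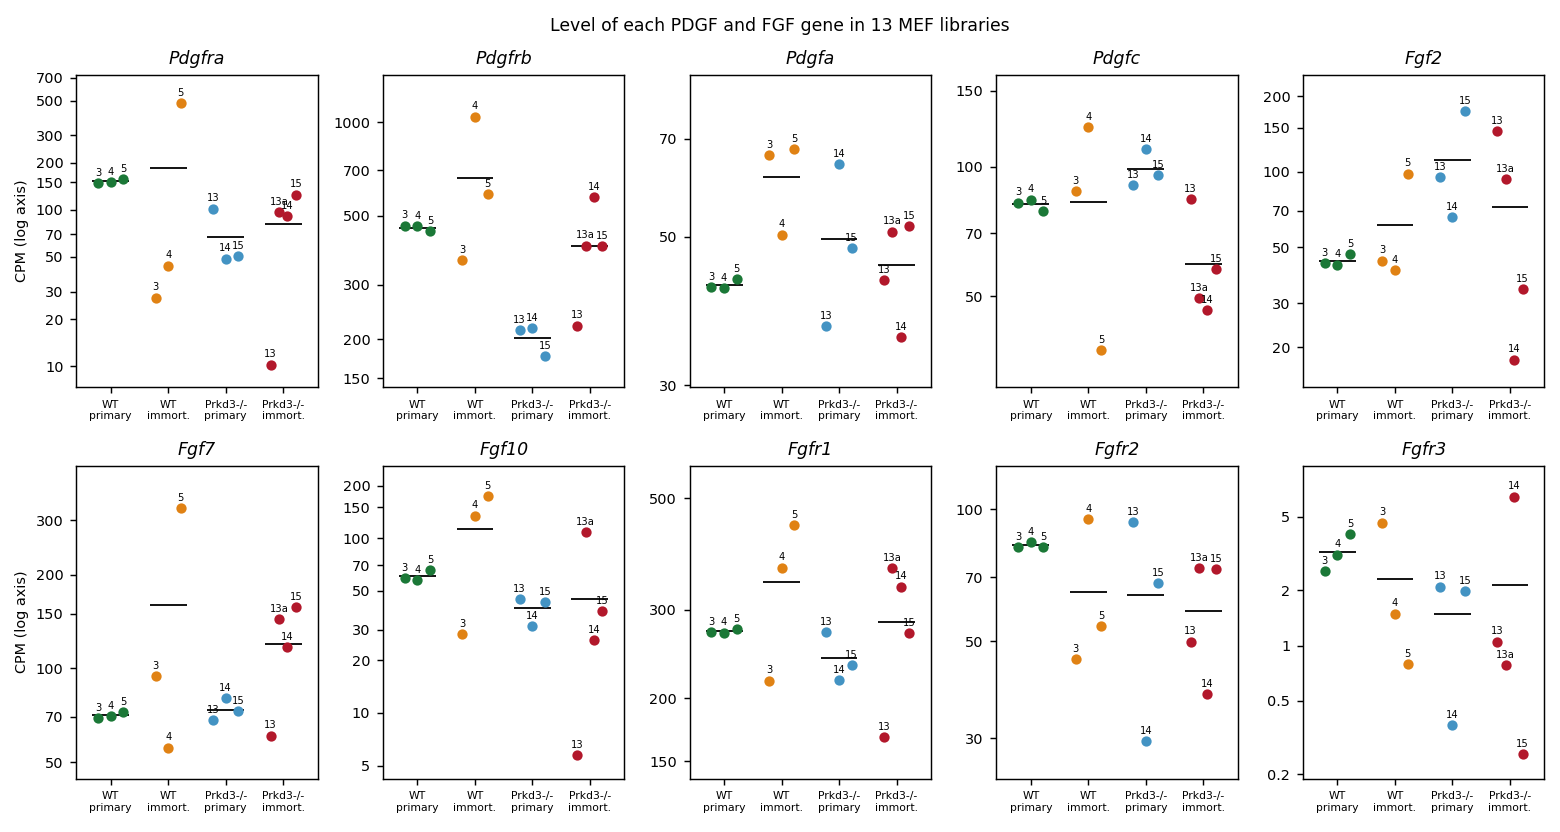
Level of each member in CPM (log axis) in the 13 libraries, by group, with the embryo or line number above each point and a bar at the group mean. WT primary libraries lie together for every member, while Pdgfra runs from 27.5 to 484 CPM among the WT lines.

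Pdgfa (chr5:138976014-138997370, - strand), the ligand of PDGF receptor alpha, varied least among the 7 lines (1.91-fold). It was at 42.0, 41.9 and 43.2 CPM in WT primary MEFs and at 66.2, 50.3 and 67.6 CPM in WT lines 3, 4 and 5, with every line above every primary library. The Log2FC in WT was 0.53 ± 0.13, with an unadjusted p of 0.00679 and an adjusted p of 0.0883 by edgeR, which did not pass. In Prkd3-/- the primary libraries had 36.7, 64.1 and 48.0 CPM and lines 13, 13a, 14 and 15 had 43.1, 50.9, 35.4 and 51.8 CPM, overlapping. The Log2FC there was -0.15 ± 0.24. The gene shares 26.1% of its exon bases with 6330403L08Rik on the other strand, which was counted at 9.13 to 40.1 CPM, so reads of the pair cannot be told apart in that stretch.

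Pdgfc (chr3:81036416-81214040, + strand), whose protein is secreted with a CUB domain and activated by cleavage, was at 82.6, 83.8 and 78.8 CPM in WT primary MEFs and at 87.8, 123 and 37.6 CPM in WT lines 3, 4 and 5. Line 4 was the highest of the 13 libraries and line 5 the lowest, and the WT Log2FC was 0.02 ± 0.41. Prkd3-/- primary libraries had 90.8, 110 and 95.7 CPM, and lines 13, 13a, 14 and 15 had 84.2, 49.4, 46.5 and 57.9 CPM. Here every line was below every primary library, at a Log2FC of -0.75 ± 0.23, an unadjusted p of 0.0132 and an adjusted p of 0.631 (edgeR). Pdgfc was at its lowest where Pdgfra was highest, in WT line 5, but in line 13, where Pdgfra was lowest, it was near the primary level.

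Among the FGF ligands, Fgf2 (chr3:37348346-37410108, + strand), which encodes basic FGF, an FGF without a classical signal peptide, was at 43.3, 42.7 and 47.1 CPM in WT primary MEFs and 44.4, 40.7 and 98.5 CPM in WT lines 3, 4 and 5. Line 5 alone was outside the primary range by more than a few CPM. Prkd3-/- primary 13, 14 and 15 had 95.4, 66.0 and 174 CPM, and lines 13, 13a, 14 and 15 had 145, 93.6, 17.9 and 34.0 CPM. Lines 14 and 15 were below every primary library and the lines from embryo 13 were not. The Log2FC was 0.46 ± 0.36 in WT (adjusted p = 0.535, edgeR) and -0.65 ± 0.70 in Prkd3-/- (adjusted p = 0.883, edgeR). Fgf2 shares 13.2% of its exon bases with Nudt6, its antisense partner, and Gm43439.

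Fgf7 (chr2:126034658-126091185, + strand), the keratinocyte growth factor, acts on the epithelial form of Fgfr2. It was at 69.3, 70.1 and 72.5 CPM in WT primary MEFs and 68.0, 80.3 and 72.8 CPM in Prkd3-/- primary MEFs, the narrowest range of any member over the 6 primary libraries (1.179-fold). WT lines 3, 4 and 5 had 94.4, 55.6 and 328 CPM. Prkd3-/- lines 13, 13a, 14 and 15 had 60.8, 144, 117 and 158 CPM. Of the 7 lines, 5 were above every primary library and WT line 4 and Prkd3-/- line 13 were below every one. The Log2FC was 1.17 ± 0.65 in WT (adjusted p = 0.392, edgeR) and 0.70 ± 0.33 in Prkd3-/- (adjusted p = 0.788, edgeR).

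Fgf10 (chr13:118669791-118792115, + strand), the mesenchymal ligand needed for limb and lung outgrowth, was at 59.0, 57.3 and 66.0 CPM in WT primary MEFs and 28.2, 135 and 175 CPM in WT lines 3, 4 and 5. Line 3 was below and lines 4 and 5 above every WT primary library. In Prkd3-/- the primary libraries had 44.7, 31.4 and 43.2 CPM, while lines 13, 13a, 14 and 15 had 5.75, 109, 26.0 and 38.2 CPM. Lines 13 and 13a, of the same embryo number, were the lowest and the highest of that group. The Log2FC was 0.89 ± 0.61 in WT (adjusted p = 0.487, edgeR) and 0.17 ± 0.81 in Prkd3-/- (adjusted p = 0.979, edgeR). Without WT line 3 the WT Log2FC was 1.35 with an adjusted p of 0.00766 (edgeR), past the thresholds. The per-length ratio of Fgf7 to Fgf10 was 1.56 to 1.73 in WT primary libraries and spread from 0.585 in WT line 4 to 14.99 in Prkd3-/- line 13.

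Fgfr1 (chr8:25513654-25575718, + strand), the main FGF receptor of fibroblasts, was at 271, 270 and 275 CPM in WT primary MEFs and 217, 364 and 442 CPM in WT lines 3, 4 and 5. Prkd3-/- primary libraries had 271, 218 and 233 CPM, and lines 13, 13a, 14 and 15 had 167, 363, 334 and 270 CPM. Line 3 in WT and line 13 in Prkd3-/- fell outside the primary range on the low side and the other lines were within or above it. The Log2FC was 0.33 ± 0.26 in WT (adjusted p = 0.551, edgeR) and 0.23 ± 0.29 in Prkd3-/- (adjusted p = 0.892, edgeR).

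Fgfr2 (chr7:130162451-133123350, - strand), whose mesenchymal and epithelial splice forms bind different FGFs and are not separated by counts per gene, was at 82.1, 84.3 and 81.9 CPM in WT primary MEFs and 45.5, 94.9 and 54.1 CPM in WT lines 3, 4 and 5. Prkd3-/- primary libraries had 93.4, 29.6 and 67.9 CPM and lines 13, 13a, 14 and 15 had 49.9, 73.4, 37.9 and 73.1 CPM. The lowest of the 13 values was that of Prkd3-/- primary 14, the library with the highest macrophage sum. WT primary libraries had macrophage sums of 721 to 749 CPM at Fgfr2 levels of 81.9 to 84.3 CPM. Prkd3-/- line 14 had the lowest sum, 10.6 CPM, at an Fgfr2 level of 37.9 CPM. The part of these markers in Fgfr2 levels was not tested. The Log2FC was -0.35 ± 0.28 in WT and -0.13 ± 0.41 in Prkd3-/- (adjusted p of 0.545 and 0.965, edgeR). The Fgfr2 gene model reaches over Ctbp2, with which it shares 3.04% of its exon bases.

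Fgfr3 (chr5:33721674-33737068, + strand), a receptor best known from growth plate cartilage, was counted at 19 to 411 reads per library. It was at 2.53, 3.11 and 4.02 CPM in WT primary MEFs, 4.64, 1.49 and 0.795 CPM in WT lines 3, 4 and 5, and 2.09, 0.370 and 1.96 CPM in Prkd3-/- primary MEFs. Prkd3-/- lines 13, 13a, 14 and 15 had 1.05, 0.781, 6.43 and 0.256 CPM. Line 14, the highest of the 13 libraries, also had the highest summed level of 7 chondrocyte markers (2149 CPM, against 77.0 to 899 in the other lines). Col2a1 made up most of its sum. The next highest sum, 899 CPM in line 13a, went with Fgfr3 at 0.781 CPM. WT line 3, with Fgfr3 at 4.64 CPM, had a sum of 260 CPM. The part of these markers in Fgfr3 levels was not tested. The Log2FC was -0.48 ± 0.65 in WT and 0.53 ± 1.12 in Prkd3-/- (adjusted p of 0.735 and 0.941, edgeR). G630022F23Rik, on the other strand, shares 13.9% of the Fgfr3 exon bases.

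To ask whether immortalization moved the members as a whole, their fitted differences were read against all genes, where a call needs a |Log2FC| of 1 or more and an adjusted p below 0.01. In WT, 0 of 10 members were called by edgeR, against 1.82% of the 19836 genes tested. Unadjusted p (edgeR) was under 0.05 for 1 member (Pdgfa) and for 3905 of these genes. DESeq2 called 0 members, with no adjusted p for Pdgfra, against 5.96% of genes. Of the 361 genes that edgeR called, 349 were lower in lines, and without WT primary 3, 4 or 5 the calls numbered 48, 50 or 66, and 539 without WT line 3 and 743 without WT line 5. Of the 10, 8 had a positive Log2FC and 2 a negative one, with a median of 0.39 beside 0.04 over all genes. Without WT line 5 the tally was 6 and 4 with a median of 0.09, and without WT line 3 it was 7 and 3 with a median of 0.61. The median size of the Log2FC was 0.47 for the members and 0.25 for all genes. Ranges of lines and primary libraries did not overlap for 1 member (Pdgfa, higher in lines), against 31.3% of all genes. In Prkd3-/-, 0 of 10 members and 0% of 20298 genes were called by edgeR. Unadjusted p was under 0.05 for 2 members (Pdgfrb and Pdgfc) and 1331 genes, and DESeq2 called 0 members and 190 genes (0.78%). The tally was 6 positive and 4 negative, with a median of 0.20 beside 0.07 over all genes. That median was 0.08 without primary 14, 0.08, 0.11 and -0.07 without lines 14, 15 and 13a, 0.48 without line 13, -0.07 with limma and -0.05 with embryo as a replicate block. Ranges did not overlap for these 2 members, Pdgfrb higher and Pdgfc lower in lines, against 9.44% of all genes. In these bulk cultures, fewer cells of a kind and less RNA per cell cannot be told apart.

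The state effect of Prkd3-/- minus that of WT was tested as an interaction over the 13 libraries. With edgeR 0 of 10 members and 0% of 21197 genes passed an adjusted p under 0.05. Unadjusted p was under 0.05 for 1 member, Pdgfa (-0.67 ± 0.29), and for 841 genes, and DESeq2 called 0 members and 37 genes (0.123%). Without Prkd3-/- line 14, 2 genes passed by edgeR. The largest of these differences in size were those of Fgf2, at -1.09 ± 0.90, and Fgfr3, at 1.02 ± 1.44, and that of Fgfr3 turned to -0.60 without line 14.

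**Figure D2:**
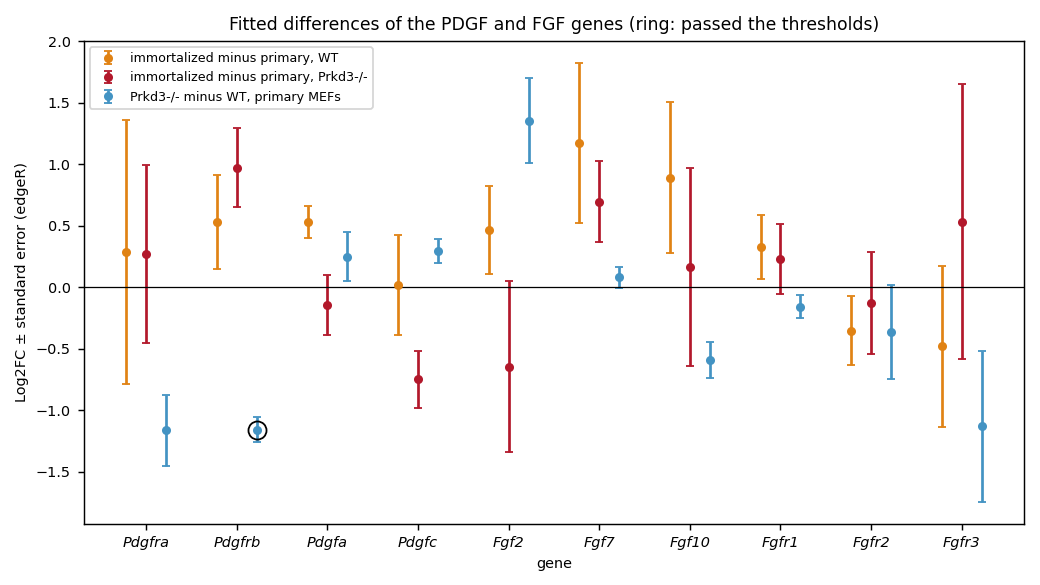
Log2FC ± standard error (edgeR) of each member for lines minus primary MEFs in WT and in Prkd3-/-, and for Prkd3-/- minus WT in primary MEFs. The ring marks Pdgfrb in primary MEFs at -1.16, the value that passed the thresholds.

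Lines differed from each other more than primary cultures did. In WT all 10 members had a wider range, as the highest over the lowest CPM, among the 3 lines than among the 3 primary libraries, as did 87.6% of 19272 genes. The median fold between lines was 3.09 for members and 1.54 for all genes, and between primary libraries 1.05 and 1.11. Pdgfra had the widest WT range, 17.6-fold, more than 97.2% of genes, followed by Fgf10 (6.20-fold), Fgf7 (5.90-fold) and Fgfr3 (5.84-fold). Pdgfa had the narrowest, 1.34-fold. In Prkd3-/- 8 of 10 members had a wider range among the 4 lines, as did 87.3% of genes, the exceptions being Pdgfa and Fgfr2. The median fold between these lines was 2.60 for members and 2.27 for all genes, and between the Prkd3-/- primary libraries 1.58 and 1.39. Such a range tends to grow with the number of libraries, here 4 lines against 3 primary libraries. Over the 7 lines Pdgfra spanned 47.3-fold, Fgf10 30.5-fold and Fgfr3 25.1-fold.

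**Figure D3:**
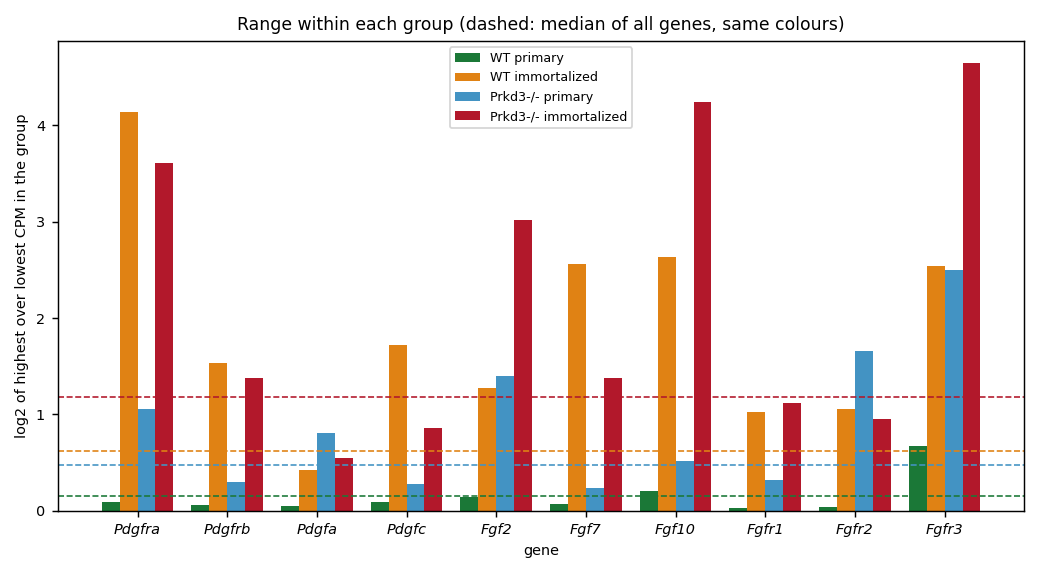
Highest over lowest CPM of each member within each group, on a log2 scale, with dashed lines at the median of all genes in the same group. Pdgfra, Fgf7, Fgf10 and Fgfr3 exceed the all-gene median by most among WT lines, and every WT primary bar lies under 1.

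Each line was also set against the primary library of its own embryo, as a log2 ratio. Pdgfrb was higher in 6 of 7 lines, by up to 1.41, the exception being WT line 3 (-0.37). Pdgfa was higher in 6 of 7 as well, with line 14 at -0.86. Pdgfc and Fgfr3 were lower in 5 of 7, the latter from -2.87 in line 15 to 4.07 in line 14, and Fgf7 and Fgfr1 were higher in 5 of 7. Pdgfra, Fgf2, Fgf10 and Fgfr2 were each higher in 3 lines and lower in 4. Pdgfra spread from -3.31 in line 13 to 1.63 in WT line 5, and Fgf10 from -2.96 in line 13 to 1.41 in WT line 5. Fgf2 lay between -2.36 (line 15) and 1.06 (WT line 5). WT line 5 held the highest level among the lines of 5 members (Pdgfra, Pdgfa, Fgf7, Fgf10 and Fgfr1), and line 13 the lowest of 4 (Pdgfra, Pdgfrb, Fgf10 and Fgfr1).

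**Figure D4:**
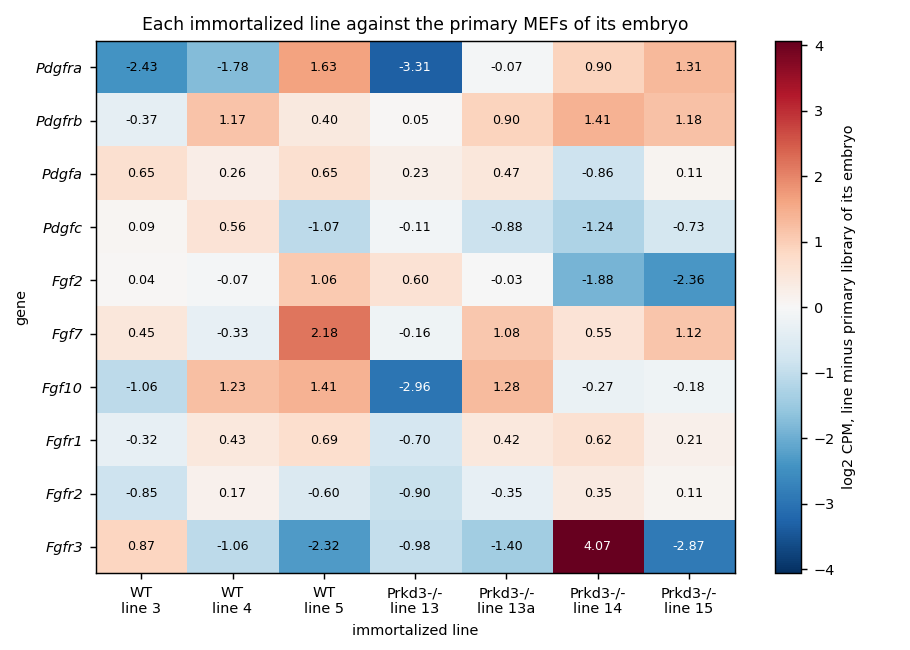
Log2 CPM of each immortalized line minus that of the primary library of its embryo, by gene and line (red higher, blue lower in the line). Lines 13 and 13a, set against the same primary library, differ in sign for Fgf10 (-2.96 and 1.28) and in size for Pdgfra (-3.31 and -0.07).

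Primary cultures of the 2 genotypes were compared before immortalization. Pdgfrb was lower in Prkd3-/- primary MEFs, at 203 ± 22.7 CPM (SD, n = 3) against 458 ± 11.1 in WT. Its Log2FC was -1.16 ± 0.10 with an adjusted p of 0.00399 (edgeR), so 1 of 10 members was called, against 0.765% of 20403 genes. Pdgfra was at 67.0 ± 30.1 against 152 ± 4.58 CPM, with the same Log2FC of -1.16 but a wider error of 0.29 and an adjusted p of 0.0721, and Fgf2 was at 112 ± 56.0 against 44.4 ± 2.40 CPM, at 1.36 ± 0.35 and 0.0786. DESeq2 called these 2 as well as Pdgfrb, 3 of 10 members against 3.71% of genes. The 156 genes called by edgeR became 2, 2 and 27 without WT primary 3, 4 and 5, and 1456 and 75 without Prkd3-/- primary 14 and 15. Ranges did not overlap for 6 members, with Pdgfc and Fgf2 higher and Pdgfra, Pdgfrb, Fgf10 and Fgfr3 lower in Prkd3-/-, against 34.3% of all genes. The call for Pdgfrb was lost without any single WT primary library (adjusted p of 0.0324 to 0.0399) and without Prkd3-/- primary 13 (0.0107), at a Log2FC of -1.16 to -1.19. Without primary 13 Pdgfra was called instead, at -1.59 with an adjusted p of 0.00199 (edgeR). The macrophage markers had a negative Log2FC for 11 of 11, with 0 called (edgeR and DESeq2). Fibroblast markers had one for 9 of 11, with 0 called by edgeR and 3 called lower by DESeq2. The part of these markers was not tested. The genotypes come in separate tables, so genotype and batch cannot be told apart.

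The wider pathway was read from fixed lists, with calls by edgeR. In WT lines the lower genes were Fgf9 (0.890 to 1.59 CPM in primary MEFs, 0 to 0.0306 in lines, adjusted p = 0.00756, edgeR) and Fgf16 (0.475 to 0.733 and 0.0306 to 0.0645 CPM, adjusted p = 0.00726, edgeR). They were 2 of 11 other FGF family genes tested. The 4 genes called for state in these lists were lower, as were 349 of the 361 called among all genes, which made up 1.82% of those tested. Most of these 11 genes were scarce, and 8 of 11 had a negative Log2FC, with a median of -1.79 beside 0.04 over all genes. Some entered the test only through primary MEFs, such as Fgf5 (means of 4.81 CPM there and 0.143 in lines). Genes of this list scarce in both states were not tested, so no shift is read from this tally. Fgfbp1, a carrier that releases FGFs from matrix, went from 0.554 to 1.10 CPM down to 0 to 0.0169 (adjusted p = 0.00781, edgeR), 1 of 6 co-receptors and binding proteins. Hs3st1, a heparan sulfate sulfotransferase, went from 3.47 to 6.20 CPM down to 0.0339 to 0.0918 (adjusted p = 0.00248, edgeR), 1 of 12. The levels of Fgf9, Fgf16, Fgfbp1 and Hs3st1 in lines rest on few reads, so no fold is given. By total counts of a library, a limit of 3 counts was 0.0434 to 0.0457 CPM in each WT line. On the TMM scale of the levels given here, 3 counts in WT line 4 were 0.0508 CPM. These genes entered the test through their levels in primary MEFs. With at least 10 counts in every library, which leaves out genes near 0 in a group, these lists held no call for state in WT. With embryo as a replicate block 0 genes of any kind passed, these included, and they did not pass in the joint fit, in limma or without any single WT primary library.

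Of the abundant genes of the pathway, those without a call included Flrt2, an adhesion protein that binds FGF receptors (209 CPM in WT primary MEFs and 134 in lines, -0.65 ± 0.15), and Fgfrl1, a receptor without a kinase (52.8 and 66.3 CPM). The extracellular sulfatase genes Sulf1 and Sulf2, which trim heparan sulfate, had Log2FC values of -1.11 ± 0.32 and -0.40 ± 0.51 in WT, with adjusted p of 0.130 and 0.719 (edgeR). Sulf1 was near that value in Prkd3-/- too, at -1.02 ± 0.25 with an adjusted p of 0.486. None of 14 adaptors and effectors was called for state by edgeR or DESeq2 in either genotype, with Ptpn11 (the phosphatase SHP2) at 244 and 285 CPM and the adaptor Shc1 at 229 and 178 CPM in WT. The same held for 13 feedback and response genes, where the inhibitor Spred1 was at 159 and 144 CPM and Spred2 at 59.5 and 60.0. Pdgfd was at 43.0 and 19.7 CPM and Pdgfrl at 83.8 and 111 CPM, both without a call, as was Pdgfb. In Prkd3-/- edgeR called 0 genes of these lists for state, and DESeq2 called 1, from the list of other FGF family genes. Between primary cultures, Fgf18 was lower in Prkd3-/- (1.23 against 4.601 CPM, -1.88 ± 0.16, adjusted p = 0.00350, edgeR) and Dusp5, an ERK phosphatase, was higher (60.7 against 17.0 CPM, 1.86 ± 0.19, adjusted p = 0.00653, edgeR). Both calls were lost without any single WT primary library.

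The genes closest in pattern to a member were found by the mean absolute difference of centred log2 CPM over the 13 libraries. For Pdgfra, which itself deviated by 1.04 on average, the nearest were Mir7025 and Gm42802, which overlap it, and then Vegfd at 0.35. For Fgf2 they were Nudt6 and Gm43439, which overlap it, and Bmper at 0.35, against its own 0.76. For Fgf10 they were the overlapping Gm16263, then Ssc5d and Gm47311 at 0.36, against 0.88. For Pdgfrb they were Lrp6 (0.23), March9 (0.24) and Lrig3 (0.25), against 0.56.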

How the data were processed

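RNA was measured in 13 libraries. For WT, the authors aligned read pairs to mm10 (GRCm38) with STAR 2.7.10a and made whole-number counts per Ensembl gene with featureCounts of Subread 2.0.6, without strand and with pairs counted for every gene they overlap. The deposited Prkd3-/- counts list the same genes and the same tools per the labels, with further steps not given in the sources used here. Raw counts were tested with edgeR 4.0.16 in R 4.3.3 (quasi-likelihood, TMM, filter on low counts, Benjamini-Hochberg), each genotype alone. DESeq2 1.42.0, limma 3.58.1, other scalings and filters, and each library left out were alternatives. CPM used TMM over all libraries, with a prior count of 1 in log2 ratios. A Log2FC is given with its standard error. All 140 genes of the lists matched. Members and lists were chosen with earlier results of these data known. Genes named beyond the members are those called within a list, the most abundant of it, and those closest in pattern, given for Pdgfra, Pdgfrb, Fgf2 and Fgf10 and not reported here for the other members. Embryo numbers in the names pair lines with primary libraries, and same-embryo deviations correlated at -0.04 to 0.02 in WT and -0.28 to 0.14 in Prkd3-/-. Those of different embryos correlated at -0.03 to 0.06 in WT and -0.31 to 0.34 in Prkd3-/-. The pairing thus rests on the embryo numbers and not on these values. P-values set the difference between groups against the spread between these cultures. In the main fits embryo was left out, and lines 13 and 13a counted as separate cultures although taken to share an embryo. No library repeated another. Scripts were tested on simulated data.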

Additional observations from a re-analysis of the deposited data

Results flagged for a closer look

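Fgfr3 in Prkd3-/- line 14, at 6.43 CPM, was far from the other 3 Prkd3-/- lines (0.256 to 1.05 CPM). In untransformed CPM, its gap to the nearest of them was 0.871 of the range of the group, above Dixon's limit for 4 samples. This was 1 of 10 such tests, of which chance passes about 1 in 20 if values follow a normal distribution. The test was not run on log2 values.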

How the results depend on the processing

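The number of members called ranged from 0 to 1 for WT and stayed at 0 for Prkd3-/- and for the interaction when each library was left out, and from 0 to 1 between primary cultures, where DESeq2 gave 3. Members with a wider range among lines numbered 9 to 10 in WT and 7 to 10 in Prkd3-/-. With the embryo as a replicate block, 0 members were called in WT, in Prkd3-/- and in the interaction. Over all genes the 361 WT calls became 1368 with DESeq2, 157 with at least 10 counts in every library, which leaves out genes near 0 in a group, 198 with limma, and 0 in the joint fit and with the block. The 156 calls between primary cultures became 836 with DESeq2, 335 with no filter and 88 with at least 10 counts. With a library left out they ranged from 48 to 743 and from 2 to 1456. Signs of some differences turned, with none past the thresholds except Pdgfra without WT line 5. In WT, Pdgfc had -0.13 with library size alone, -0.010 with at least 10 counts, -0.14 with limma and -0.14 with the block, and -0.38 to 0.37 with a library left out. Pdgfra had -0.86 with limma, -0.999 with the block and -2.08 to 0.80 with a library left out, and Fgf2 had -0.059 to 0.69. In Prkd3-/-, limma gave -0.12 for Pdgfra and -0.45 for Fgf10, the block gave -0.61 for Fgfr3, and with a library left out Pdgfra had -0.014 to 0.69, Pdgfa -0.33 to 0.085, Fgf10 -0.78 to 0.53, Fgfr2 -0.47 to 0.25 and Fgfr3 -1.10 to 0.91. For the interaction, library size alone gave 0.068 for Pdgfra and 0.033 for Fgfr1, the block gave 1.23 and summing lines 13 and 13a gave 0.17 for Pdgfra, and with a library left out Pdgfra had -0.54 to 2.34, Fgf7 -0.88 to 0.59, Fgfr1 -0.35 to 0.12, Fgfr2 -0.11 to 0.61 and Fgfr3 -0.60 to 2.01. The cause was not tested. With 3 or 4 cultures in a group, calls in WT and between primary cultures moved when some single primary libraries or lines were left out. What limits the comparisons was not tested. Fgfr3 had as few as 19 counts in a library.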
